A study of Mus musculus with 8 samples.

Results

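Mouse intestinal crypt cells that carried a green fluorescent reporter in the Lgr5 gene were sorted by flow cytometry into a high and a low reporter fraction, and the comparison of these fractions, Lgr5 High against Lgr5 Low, is described here. Each fraction was hybridized to 1 Affymetrix array, so 2 of the 8 arrays of the study belong to the comparison and no test between them was possible. Differences are Lgr5 High minus Lgr5 Low on the deposited log2 scale. They were read over probe sets that name exactly 1 gene and whose higher array lay above the median of all values of both arrays, 6.17. Of 34945 single-gene probe sets, 20413 (58.4%) passed this rule. With each gene represented by 1 probe set, 11288 of 18193 measured genes passed, 679 of them through 1 array only.

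Both fractions came from mice with an EGFP knock-in at the Lgr5 locus, labelled C57BL/6, with no further treatment named. The sort read the fluorescence of this reporter and not Lgr5 RNA, and how closely they agreed in single cells was not measured here. The low fraction was defined by a weaker reporter signal and not by a marker of its own. The other 6 arrays held crypt cells stained with an antibody to EphB2, also labelled C57BL/6, as EphB2 High, EphB2 Medium and EphB2 Low with 2 arrays each. The shared preparation released the epithelium with EDTA, Dispase and DNase, and RNA was taken with Trizol and amplified isothermally. The number of animals, pooling, age and sex are not given in the sources used here.

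Lgr5 is a receptor for R-spondins, secreted proteins that strengthen Wnt signalling, and it marks the cycling stem cells at the crypt base, which sit between Paneth cells. Their daughters divide as they move up the crypt and become absorptive enterocytes or secretory cells, which are goblet, enteroendocrine, tuft and Paneth cells. EphB2, a tyrosine kinase receptor for ephrins, is abundant on cells of the base and declines towards the villus.

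In Lgr5 High, the genes of crypt base stem cells and a subset of Wnt target genes had higher values, with Lgr5, Tnfrsf19, Igfbp4 and Ascl2 among them. Genes of mitosis, DNA replication and ribosome assembly differed by less than 2-fold between the fractions. The largest differences were in the other direction. Of 28 measured enterocyte genes, 23 were at least 2-fold lower in Lgr5 High, and so were 21 of 26 enteroendocrine, 14 of 22 goblet and 6 of 20 tuft cell genes. The enterocyte differences reached 99.0-fold for Cyp3a11 and 66.2-fold for the lactase gene Lct. Both read under 6.17 on Lgr5 High (4.12 and 5.76) and may lie near background there, so these folds are uncertain. Among 88 measured genes on 5 lists of secretory cells, 78 passed the brightness rule. At least 2-fold lower were 43 (48.9% of those measured, against 3.91% of all measured genes), and 0 were at least 2-fold higher (against 1.86%). Of all passing genes, 6.31% were lower and 3.0% higher. The gene lists were chosen with earlier results of these data known, so their shares are no independent evidence.

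Several facts of the arrays bear on these values. The Lgr5 arrays were hybridized together, apart from the EphB2 arrays, which were run as 2 hybridizations, so sort marker and hybridization cannot be told apart. Over the 11288 genes that passed the brightness rule, Lgr5 High correlated at 0.975 and 0.981 with the EphB2 High arrays. With the EphB2 Low arrays it correlated at 0.830 and 0.793, and Lgr5 Low correlated best with EphB2 Medium, at 0.979 and 0.978. Over all 45101 probe sets, the lower quartile of values was 4.21 on Lgr5 Low and between 3.94 and 4.05 on the other arrays. No Lgr5 fraction was repeated, so the only measure of array-to-array spread came from the EphB2 duplicates. Between duplicates, 88 genes (0.796%) in EphB2 High, 101 (0.914%) in EphB2 Medium and 278 (2.53%) in EphB2 Low lay 2-fold or more apart. Between Lgr5 High and Lgr5 Low, 1051 of 11288 genes (9.31%) did, and the median absolute difference was 0.26 against 0.13 to 0.17 for the duplicates.

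Of the genes that passed the brightness rule, 339 (3.0%) were at least 2-fold higher in Lgr5 High and 712 (6.31%) at least 2-fold lower, while 90.7% lay within 2-fold. Larger differences were more one-sided. At 4-fold or more, 36 genes were higher and 261 lower, and at 16-fold or more, 1 gene was higher (Lgr5) and 40 lower. The median difference of the passing genes was -0.00, which the quantile step of RMA brings near 0 by construction, so a shift of all genes could not be seen in these values. Both arrays were above the threshold for 234 of the higher and 490 of the lower genes, and for the rest the lower array may lie near background. At the edge of the rule, Duoxa1 with 4.92 on Lgr5 High and 6.17 on Lgr5 Low and 1700007E05Rik with 5.32 on Lgr5 High and 6.17 on Lgr5 Low fell just outside. Rufy2 with 5.99 on Lgr5 High and 6.17 on Lgr5 Low and A330023F24Rik with 5.84 on Lgr5 High and 6.18 on Lgr5 Low were just inside.

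**Figure D1:**
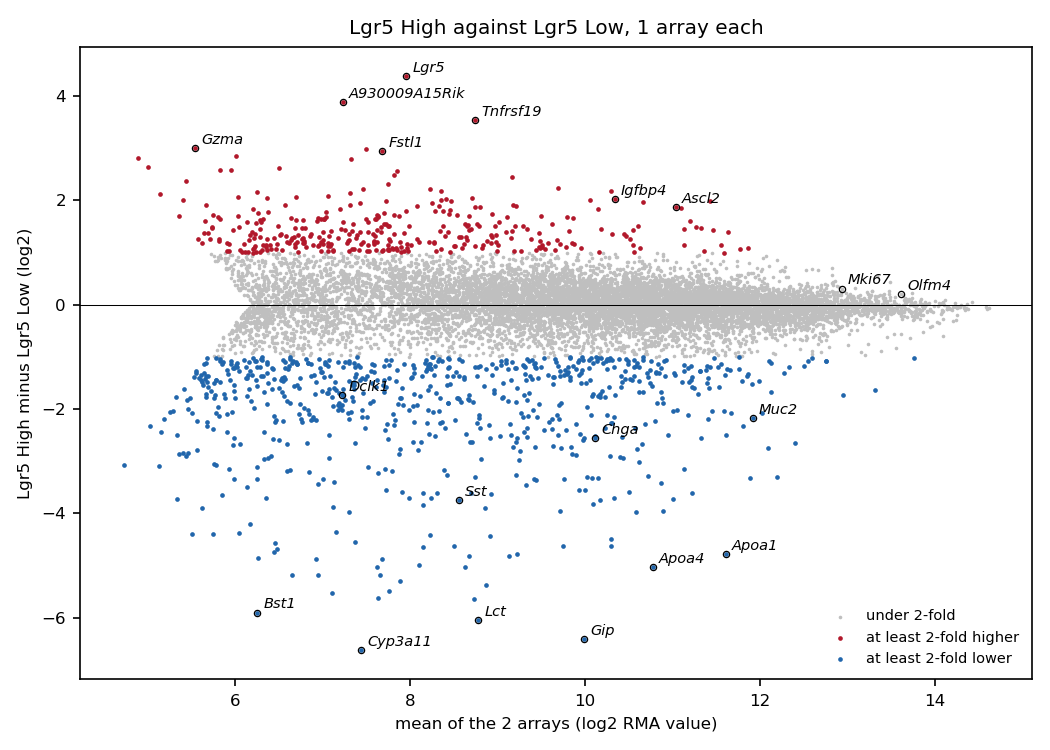
Difference between Lgr5 High and Lgr5 Low (log2, y axis) against the mean of both arrays (log2 RMA value, x axis) for the 11288 genes that passed the brightness rule, 1 point per gene. The 712 genes at least 2-fold lower (blue) reach -6.63, while the 339 at least 2-fold higher (red) end at 4.39 with Lgr5 itself.

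Lgr5 was the gene used for the sort, so its values describe the sort. It read 10.15 on Lgr5 High and 5.75 on Lgr5 Low, a 21.0-fold difference (4.39 on the log2 scale), and a further Lgr5 probe set differed by 2.95. The Lgr5 Low value was under the brightness threshold, so the fold is uncertain. On the EphB2 arrays Lgr5 read 9.48 and 9.64 on EphB2 High, 7.70 and 8.01 on EphB2 Medium and 5.66 and 4.96 on EphB2 Low. Lgr5 High lay above both EphB2 High arrays, and Lgr5 Low lay just above both EphB2 Low arrays.

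The crypt base stem cell list held 31 measured genes, of which 30 passed the brightness rule. All 31 had a difference above 0, with a median of 1.14 against -0.05 over all measured genes, and 16 were at least 2-fold higher (51.6%, against 1.86% of all measured genes). Some list members may have been picked by the study from these very arrays, which makes the direction of the list no independent evidence. In bulk samples such as these, fewer cells of a type and less RNA per cell cannot be told apart.

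Tnfrsf19 (Troy), a receptor of the tumour necrosis factor receptor family and a Wnt target, read 10.52 on Lgr5 High and 6.97 on Lgr5 Low, 11.7-fold higher. On the EphB2 arrays it read 9.72 and 10.07 on EphB2 High, 8.59 and 8.07 on EphB2 Medium and 6.29 and 4.02 on EphB2 Low. Its second bright probe set differed by only 1.61, so the size of the Tnfrsf19 difference depends on the probe set. Igfbp4, which binds insulin-like growth factors, read 11.35 on Lgr5 High and 9.32 on Lgr5 Low (2.03), and 5 further Igfbp4 probe sets gave 1.47 to 1.90. Ascl2, a transcription factor that maintains intestinal stem cells, read 11.97 on Lgr5 High and 10.10 on Lgr5 Low (1.88), and 2 further probe sets gave 2.04 to 2.25. The Ascl2 values on the other sort were 11.11 and 11.40 on EphB2 High, 9.87 and 9.86 on EphB2 Medium and 7.42 and 7.13 on EphB2 Low. For Ascl2 as for Igfbp4, Lgr5 High was the highest of the 8 arrays, and Lgr5 Low lay closer to the EphB2 Medium than to the EphB2 High arrays.

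Other list members past 2-fold were Scn2b, a sodium channel subunit, at 1.97, the protocadherin Pcdh8 at 1.92, Sorbs2 at 1.83, the receptor phosphatase Ptpro at 1.53 and the matrix proteoglycan Prelp at 1.48. Rgmb, a co-receptor of the BMP pathway, differed by 1.48, the RNA-binding protein Msi1 by 1.45 and the ubiquitin ligase Rnf43, which removes Wnt receptors from the cell surface, by 1.14. For Msi1, 2 further probe sets ranged from -0.15 to 1.58, so they disagree in sign. The other 14 passing members stayed under 2-fold. Olfm4, a secreted glycoprotein of the crypt base, read 13.71 on Lgr5 High and 13.51 on Lgr5 Low, Prom1 13.36 on Lgr5 High and 13.17 on Lgr5 Low, and the ion cotransporter Slc12a2 13.70 on Lgr5 High and 13.26 on Lgr5 Low. Smoc2, a secreted matrix protein, was close to the threshold at 0.93, and Axin2, a feedback inhibitor of Wnt signalling, at 0.86. Within the list, then, Lgr5 High and Lgr5 Low were far apart for some genes and near each other for others. Between EphB2 High and EphB2 Low all 31 members were called higher with limma (adjusted p below 0.05, against 22.0% of all measured genes), with a median difference of 2.62.

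**Figure D2:**
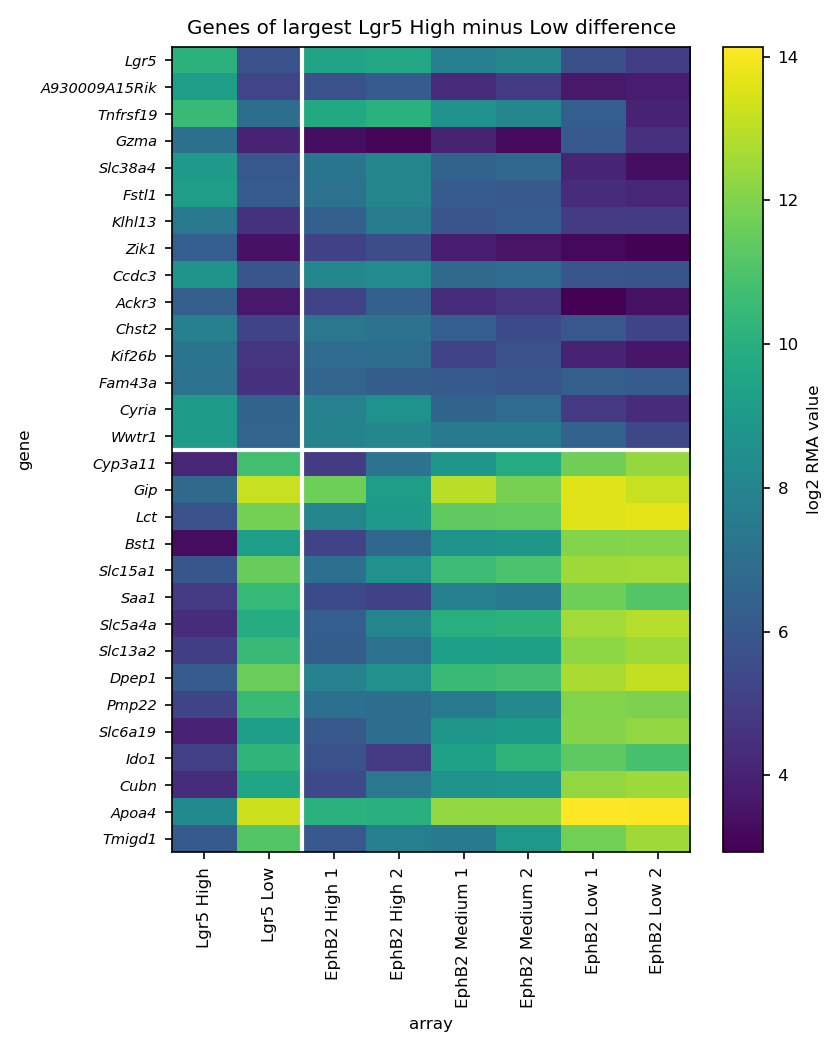
Log2 RMA values (colour) of the 15 genes of largest difference in each direction between Lgr5 High and Lgr5 Low, 1 gene per line and 1 array per column, with a horizontal line between higher and lower genes and a vertical line between the sorts. Most lower genes are darkest on Lgr5 High and brightest on EphB2 Low, while Gzma is highest on Lgr5 High and next highest on an EphB2 Low array.

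Outside the stem cell list, the highest differences included A930009A15Rik, a gene without an assigned function. It read 9.17 on Lgr5 High and 5.29 on Lgr5 Low and 5.77 and 6.19 on EphB2 High, 4.27 and 4.85 on EphB2 Medium and 3.68 and 3.80 on EphB2 Low. The Lgr5 High array alone was thus 2.98 above the highest of the other arrays, and a second probe set gave a difference of 4.20. Slc38a4, an amino acid transporter, read 8.99 on Lgr5 High and 6.01 on Lgr5 Low, and Fstl1, a secreted glycoprotein related to follistatin, read 9.15 on Lgr5 High and 6.21 on Lgr5 Low. Fstl1 read 7.15 and 8.01 on EphB2 High, 6.14 and 6.06 on EphB2 Medium and 4.36 and 4.14 on EphB2 Low, so it was higher on EphB2 High than on EphB2 Low as well, by 3.33 ± 0.28 (limma adjusted p = 0.000816), with n = 2 arrays per group as for all EphB2 differences. The scavenging chemokine receptor Ackr3 read 6.32 on Lgr5 High and 3.67 on Lgr5 Low, the sulfotransferase Chst2 7.81 on Lgr5 High and 5.19 on Lgr5 Low, and Wwtr1 (Taz), a transcriptional co-activator of the Hippo pathway, 9.06 on Lgr5 High and 6.58 on Lgr5 Low. Klhl13, Zik1, Ccdc3, Kif26b and Cyria differed by 2.85, 2.81, 2.79, 2.59 and 2.57. The EphB2 difference of each of these genes was called in the same direction. Leaving out 1 EphB2 array ended the call for Chst2 (highest adjusted p 0.0643).

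Among Wnt and beta-catenin targets, 21 were measured, with a median of 0.75, and 18 passed the brightness rule. At least 2-fold higher were 8 (38.1%, against 1.86% of all measured genes), and 0 were lower. Lgr5, Tnfrsf19, Ascl2, Cd44 and Rnf43 are also on the stem cell list. The remaining 3 were Apcdd1, a membrane-bound inhibitor of Wnt signalling, with 8.42 on Lgr5 High and 6.77 on Lgr5 Low, the transcription factor Sp5 with 10.04 on Lgr5 High and 8.54 on Lgr5 Low and Myc with 11.70 on Lgr5 High and 10.56 on Lgr5 Low. Sp5 read 9.70 and 9.59 on EphB2 High, 8.77 and 8.52 on EphB2 Medium and 8.98 and 9.13 on EphB2 Low, so Lgr5 Low lay below both EphB2 Low arrays for this gene, which was not so for Myc (10.95 and 11.09 on EphB2 High, 10.42 and 10.59 on EphB2 Medium and 9.14 and 7.68 on EphB2 Low). The cyclin gene Ccnd1 (0.21), Lef1 (0.24) and the feedback inhibitors Nkd1 (-0.05) and Notum (0.03) differed little. Of genes proposed as markers of reserve stem cells, 10 were measured. Clu, a secreted chaperone, read 9.42 on Lgr5 High and 7.40 on Lgr5 Low, and Mex3a, an RNA-binding protein, read 9.36 on Lgr5 High and 7.54 on Lgr5 Low. Clu read 7.64 and 8.02 on EphB2 High, 7.27 and 7.59 on EphB2 Medium and 7.03 and 6.77 on EphB2 Low, all below Lgr5 High by 1.40 or more. Lrig1 (0.94), Sox9 (0.81), Hopx (0.34) and Bmi1 (0.19) stayed under 2-fold. Of the 10, 6 had a difference above 0 and 4 below, with a median of 0.26. Those below were Dclk1, also a tuft cell gene and at least 2-fold lower, Prox1 (-0.63), Krt19 (-0.29) and Tert (-0.53), which was dim on both arrays.

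Proliferation genes separated the Lgr5 fractions much less than stem cell genes did. All 31 measured mitosis genes had values above 0, between 0.01 (Birc5) and 0.68 (Kif20a), with a median of 0.33. All were under 2-fold, as were 90.7% of all passing genes. Mki67, the proliferation marker, read 13.09 on Lgr5 High and 12.78 on Lgr5 Low, with 13.28 and 13.11 on EphB2 High, 12.95 and 12.99 on EphB2 Medium and 11.92 and 11.30 on EphB2 Low. For Mki67 the Lgr5 Low array was close to the EphB2 Medium arrays and above both EphB2 Low arrays. The 36 DNA replication genes had a median of 0.26, from -0.29 (Rrm2, a subunit of ribonucleotide reductase) to 0.62 (Gins3, of the replicative helicase), and the 30 ribosome biogenesis genes one of 0.18. In the EphB2 sort the same lists had median differences of 2.11, 1.81 and 1.46. Of their members 31 of 31, 36 of 36 and 29 of 30 were called higher (against 22.0% of all measured genes). The difference between the sorts was not tested. The median level of the mitosis list was 11.44 on Lgr5 High and 11.08 on Lgr5 Low, and 11.40 and 11.60 on EphB2 High, 11.12 and 11.26 on EphB2 Medium and 9.87 and 8.81 on EphB2 Low.

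Enterocyte genes gave the largest differences. Of 28 measured, all passed the brightness rule, 7 through the Lgr5 Low array alone, and all 28 had a difference below 0. The median was -3.36, and 23 were at least 2-fold lower in Lgr5 High (82.1%, against 3.91% of all measured genes). Cyp3a11, a drug-metabolizing cytochrome P450, read 4.12 on Lgr5 High and 10.75 on Lgr5 Low, with 4.90 and 7.20 on EphB2 High, 8.87 and 9.84 on EphB2 Medium and 11.71 and 12.36 on EphB2 Low. Lct, the lactase of the brush border, read 5.76 on Lgr5 High and 11.80 on Lgr5 Low, with 8.03 and 8.98 on EphB2 High, 11.39 and 11.45 on EphB2 Medium and 13.61 and 13.69 on EphB2 Low. In both genes Lgr5 High was the lowest of the 8 arrays, and Lgr5 Low lay above EphB2 Medium and below EphB2 Low. Slc15a1, which takes up small peptides, read 5.91 on Lgr5 High and 11.55 on Lgr5 Low, Slc6a19, a transporter of neutral amino acids, 4.05 on Lgr5 High and 9.24 on Lgr5 Low, and Cubn, a receptor for intrinsic factor with cobalamin, 4.36 on Lgr5 High and 9.54 on Lgr5 Low. The lipid carriers Apoa4 and Apoa1 read 8.25 on Lgr5 High and 13.29 on Lgr5 Low, and 9.22 on Lgr5 High and 13.99 on Lgr5 Low, and the glucose transporter Slc2a2 5.83 on Lgr5 High and 10.47 on Lgr5 Low. Alpi, the intestinal alkaline phosphatase, differed by -4.49, and Krt20, a keratin of differentiated cells, by -3.42. The 5 enterocyte genes under 2-fold were Apob (-0.70), Fabp2 (-0.64), Vil1 (-0.43), Dpp4 (-0.21) and Mgam (-0.19). Vil1, the actin bundler of microvilli, read 12.69 on Lgr5 High and 13.12 on Lgr5 Low, so the epithelial marker was high in both fractions. All 28 were also called lower in EphB2 High than in EphB2 Low (against 15.3% of all measured genes), with a median of -3.14.

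Genes outside the enterocyte list were also among the largest lower values. Slc5a4a, of the sodium-glucose transporter family, differed by -5.53, from 9.87 on Lgr5 Low to 4.34 on Lgr5 High, and Slc13a2, a dicarboxylate transporter, by -5.49, from 10.50 on Lgr5 Low to 5.01 on Lgr5 High. The membrane dipeptidase Dpep1 differed by -5.37 (a second probe set gave -5.92), Bst1, an ectoenzyme of NAD metabolism, by -5.90 (second probe set -3.94), Pmp22 by -5.29 and Tmigd1 by -5.04. Saa1, an acute phase protein made by the epithelium, read 4.82 on Lgr5 High and 10.44 on Lgr5 Low, and Ido1, which degrades tryptophan, 5.06 on Lgr5 High and 10.24 on Lgr5 Low. Across symbol families, which were chosen after their values were seen, 50 of 232 passing Slc genes were at least 2-fold lower and 11 higher. Of 28 passing Cyp genes, 11 were lower and 2 higher. The lower shares were 21.6% and 39.3%, where 6.31% of all passing genes were lower and 3.0% higher. Abc genes had 4 of 26 lower, Ugt genes 2 of 5 and Kif genes 2 of 32, with 0, 0 and 2 higher. Past 2-fold either way were 0 of 11 Mcm, 0 of 47 Psm and 0 of 23 Rpl genes, against 9.31% of all passing genes. Most families held few genes, and no share was tested.

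The promoters of enterocyte genes were searched because these genes had low values together in Lgr5 High. HNF4 proteins are nuclear receptors that bind enterocyte gene promoters, and the letters CAAAGTNCA, which they are known to bind, were found on either strand in the 250 bases before the start of 6 of 25 enterocyte list genes with a RefSeq promoter (24%). The same letters were in 379 of 27025 promoters in all (1.40%), in 13 of 205 of the genes at least 4-fold lower (6.34%), in 3 of 267 of those at least 2-fold higher (1.12%) and in 0 of 22 stem cell list promoters. In the following sequences, read 5′ to 3′ on the gene's strand from RefSeq GRCm38.p6, capitals mark the match or its reverse complement. Cyp3a11 lies at chr5:145879855-145880104, minus strand, Alpi at chr1:87101607-87101856, minus strand, Treh, the trehalase, at chr9:44672983-44673232, plus strand, and Apoa4 at chr9:46240594-46240843, plus strand; they are shown as the 4 list genes with a match of largest difference.
Cyp3a11: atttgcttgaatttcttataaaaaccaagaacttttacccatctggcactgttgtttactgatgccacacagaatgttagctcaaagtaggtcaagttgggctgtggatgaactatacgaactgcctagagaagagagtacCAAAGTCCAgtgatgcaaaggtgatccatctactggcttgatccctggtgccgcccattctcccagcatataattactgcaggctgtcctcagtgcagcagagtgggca
Alpi: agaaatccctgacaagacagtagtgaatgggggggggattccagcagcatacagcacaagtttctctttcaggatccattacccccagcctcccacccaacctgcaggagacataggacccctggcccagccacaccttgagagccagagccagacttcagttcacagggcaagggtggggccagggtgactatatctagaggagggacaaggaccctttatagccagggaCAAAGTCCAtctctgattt
Treh: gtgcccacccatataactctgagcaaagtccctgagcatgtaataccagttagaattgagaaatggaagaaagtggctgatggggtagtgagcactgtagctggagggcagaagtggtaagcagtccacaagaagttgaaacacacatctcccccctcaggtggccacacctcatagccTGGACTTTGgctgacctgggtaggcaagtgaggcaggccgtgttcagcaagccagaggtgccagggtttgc
Apoa4: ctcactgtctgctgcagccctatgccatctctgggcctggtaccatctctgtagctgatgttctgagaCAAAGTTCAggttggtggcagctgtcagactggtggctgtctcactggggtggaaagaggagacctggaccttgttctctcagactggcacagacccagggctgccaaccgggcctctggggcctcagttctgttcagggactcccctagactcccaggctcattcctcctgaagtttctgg
The first match base lies 109, 19, 71 and 182 bases before the start, in that order. Rbp2 (-3.31), a retinol carrier, and Fabp2 (-0.64), a fatty acid carrier, also held a match, although Fabp2 differed by less than 2-fold. In all, 8 motif spellings were searched, and this spelling was chosen for display after the counts were seen. The stricter spelling CAAAGTCCA, in which the free letter N is fixed to C, was in 3 of 25 enterocyte list promoters and 0.451% of all. For the TCF/LEF letters CTTTGAT and CTTTGAA, which Wnt signalling uses, the shares among genes at least 2-fold higher were 4.87% and 5.62%. Of all promoters 3.72% and 5.19% held them, and of those of genes that passed the brightness rule 2.82% and 4.01%. Among those at least 4-fold lower they were 3.41% and 5.85%, and 2 and 3 of the 25 enterocyte list promoters and 1 and 2 of the 22 stem cell list promoters held them. The GATA letters AGATAAG were in 6.83% of those at least 4-fold lower, in 5.24% of those at least 2-fold higher and in 3.17% of all, as well as in 2 of 25 enterocyte and 2 of 22 stem cell list promoters. The CDX letters TTTATGG were in 2.44% of those at least 4-fold lower, 3.75% of those at least 2-fold higher and 2.83% of all. A short HNF1 spelling was in 1.95% of those at least 4-fold lower, in 0 of 267 of those at least 2-fold higher, in 0 of 25 enterocyte list promoters and in 0.440% of all, and a longer, palindromic HNF1 spelling in 0 of 205 against 11 of 27025. The sets by fold were drawn from genes that passed the brightness rule, so the 9216 promoters of such genes are their nearer background. There the shares were 1.29% for CAAAGTNCA, 0.499% for CAAAGTCCA, 2.18% for the GATA letters and 2.04% for the CDX letters. For the short HNF1 spelling the share was 0.326%, and the longer one was in 2 of 9216. No difference in shares was tested. A match is a description of the letters only.

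Goblet cell genes, of which 22 were measured and all passed, had a median of -1.40. At least 2-fold lower in Lgr5 High were 14 (63.6%, against 3.91% of all measured genes), and 0 were higher. Muc2, the main secreted mucin of the gut, read 10.82 on Lgr5 High and 13.00 on Lgr5 Low, with 11.63 and 11.67 on EphB2 High, 12.33 and 12.77 on EphB2 Medium and 12.80 and 12.49 on EphB2 Low. Clca1, a secreted protease of mucus, read 10.72 on Lgr5 High and 13.46 on Lgr5 Low, and Fer1l6 5.23 on Lgr5 High and 10.12 on Lgr5 Low. Lgr5 High was the lowest of the 8 arrays for Muc2, Clca1 and Fer1l6. Capn9, a calpain, differed by -3.55 and the mucus protein Fcgbp by -1.73, while Tff3 (-0.84), Agr2 (-0.61) and Spink4 (-0.34) stayed under 2-fold. Between EphB2 High and EphB2 Low, 8 of the 22 were called lower and 7 higher (against 15.3% and 22.0% of all measured genes, or 20.6% and 33.2% of passing genes), with a median of -0.01.

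Enteroendocrine genes had 26 measured members, of which 25 passed, 8 through 1 array only. At least 2-fold lower were 21 (80.8%, against 3.91% of all measured genes), with a median of -1.92 and 0 at least 2-fold higher. Gip, a hormone released after meals, read 6.78 on Lgr5 High and 13.20 on Lgr5 Low, with 11.67 and 9.17 on EphB2 High, 12.98 and 11.83 on EphB2 Medium and 13.58 and 13.18 on EphB2 Low. Its 85.5-fold difference was second to that of Cyp3a11, although the EphB2 High arrays themselves lay more than 2 log2 units apart and leaving out 1 array could end its EphB2 call (highest adjusted p 0.132). Sst, the hormone somatostatin, read 6.68 on Lgr5 High and 10.42 on Lgr5 Low, with 6.66 and 7.001 on EphB2 High, 8.88 and 8.41 on EphB2 Medium and 8.74 and 8.20 on EphB2 Low, so that the Lgr5 Low array alone was 1.55 above the highest other array. Chga, a protein of hormone granules, read 8.83 on Lgr5 High and 11.40 on Lgr5 Low, Tac1, which encodes substance P, 9.21 on Lgr5 High and 11.98 on Lgr5 Low, and Ghrl, the hormone ghrelin, 8.85 on Lgr5 High and 11.38 on Lgr5 Low. The transcription factors Neurod1 (-2.31), Isl1 (-2.56), Insm1 (-1.94) and Nkx2-2 (-1.60) were lower with them. Chga on the other sort read 11.59 and 10.24 on EphB2 High, 11.86 and 10.31 on EphB2 Medium and 12.12 and 11.58 on EphB2 Low, where the array of the second hybridization lay below that of the first in each group. With the hybridization as a block, the EphB2 difference of Tac1 passed the threshold (adjusted p = 0.00765, against 0.186 without it) and that of Chga did not (0.0505). Of the list, 11 members were called lower and 1 higher in EphB2 High (against 15.3% and 22.0% of all measured genes), with a median of -1.12.

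Tuft cells are chemosensory cells of the epithelium, and 20 of their genes were measured, 12 of which passed. At least 2-fold lower were 6 (30.0%, against 3.91% of all measured genes), with 0 higher and a median of -0.77. Dclk1, a kinase that marks tuft cells, read 6.36 on Lgr5 High and 8.09 on Lgr5 Low, with 9.07 and 8.70 on EphB2 High, 7.77 and 6.35 on EphB2 Medium and 6.01 and 5.04 on EphB2 Low. Rgs13, a regulator of G protein signalling, read 7.33 on Lgr5 High and 8.71 on Lgr5 Low, with 8.31 and 8.08 on EphB2 High, 6.32 and 4.90 on EphB2 Medium and 4.67 and 3.84 on EphB2 Low. Trpm5, the channel of taste transduction, read 8.04 on Lgr5 High and 9.13 on Lgr5 Low. In each of the 3 genes Lgr5 Low lay above Lgr5 High and also above both EphB2 Low arrays. Sh2d6 (-1.27), Alox5ap (-1.15) and Avil (-1.12) were the others past 2-fold. Pou2f3, the transcription factor that defines the lineage, was dim on both arrays (4.02 on Lgr5 High and 3.84 on Lgr5 Low). Of the 20, 8 were called higher and 2 lower in EphB2 High. Of all measured genes 22.0% were called higher and 15.3% lower, and of passing genes 33.2% and 20.6%. The EphB2 median of the list was 0.72, opposite in sign to the Lgr5 median, and this was not tested.

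Paneth cell genes were mostly under 2-fold. Of 13 measured, all passed, 12 had a difference below 0 and 1 was at least 2-fold lower. That gene, Guca2b, encodes uroguanylin, which absorptive cells make, and it read 10.31 on Lgr5 High and 12.49 on Lgr5 Low. Pla2g2a, a secreted antibacterial phospholipase, read 11.44 on Lgr5 High and 12.35 on Lgr5 Low, with 11.46 and 11.56 on EphB2 High, 10.11 and 10.38 on EphB2 Medium and 8.73 and 8.77 on EphB2 Low. Mmp7, which activates defensins, read 12.36 on Lgr5 High and 12.98 on Lgr5 Low, Lyz1, the Paneth cell lysozyme, 14.05 on Lgr5 High and 14.37 on Lgr5 Low, and Wnt3, a niche ligand, 5.92 on Lgr5 High and 6.32 on Lgr5 Low. Defa3 was the 1 member above 0 (0.44), and since defensin genes are nearly identical its signal may be shared with other defensins. The list's median level was 11.44 on Lgr5 High and 12.49 on Lgr5 Low, with 11.46 and 11.56 on EphB2 High, 11.34 and 11.50 on EphB2 Medium and 10.49 and 10.44 on EphB2 Low, so Lgr5 Low was the highest array and Lgr5 High lay near the EphB2 High arrays. In EphB2 High 9 of the 13 were called higher and 1, Guca2b, lower (against 33.2% and 20.6% of passing genes).

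Transcription factors of early secretory cells were lower in Lgr5 High, though not all list members were. Atoh1, which commits cells to the secretory fate, read 8.37 on Lgr5 High and 9.58 on Lgr5 Low, Spdef, which matures goblet cells, 9.24 on Lgr5 High and 10.95 on Lgr5 Low, and Gfi1 6.91 on Lgr5 High and 8.45 on Lgr5 Low. Neurog3, which starts the endocrine fate, differed by -1.15. With Insm1, these genes made 5 of 12 measured secretory progenitor genes at least 2-fold lower (41.7%, against 3.91% of all measured genes). Sox4 (0.95), Foxa3 (0.78), Foxa2 (0.74) and Hes6 (0.54) had values above 0 and under 2-fold. Atoh1 read 8.98 and 9.27 on EphB2 High, 8.66 and 9.07 on EphB2 Medium and 8.46 and 7.85 on EphB2 Low, so Lgr5 Low was the highest of the 8 arrays and Lgr5 High lay near the EphB2 Low arrays. In EphB2 High 8 of the 12 were called higher and 0 lower (against 22.0% and 15.3% of all measured genes). Atoh1, Spdef, Gfi1 and Neurog3 were among the higher. Leaving out 1 array could end the calls of Atoh1 and Neurog3 (highest adjusted p 0.143 and 0.0825).

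**Figure D3:**
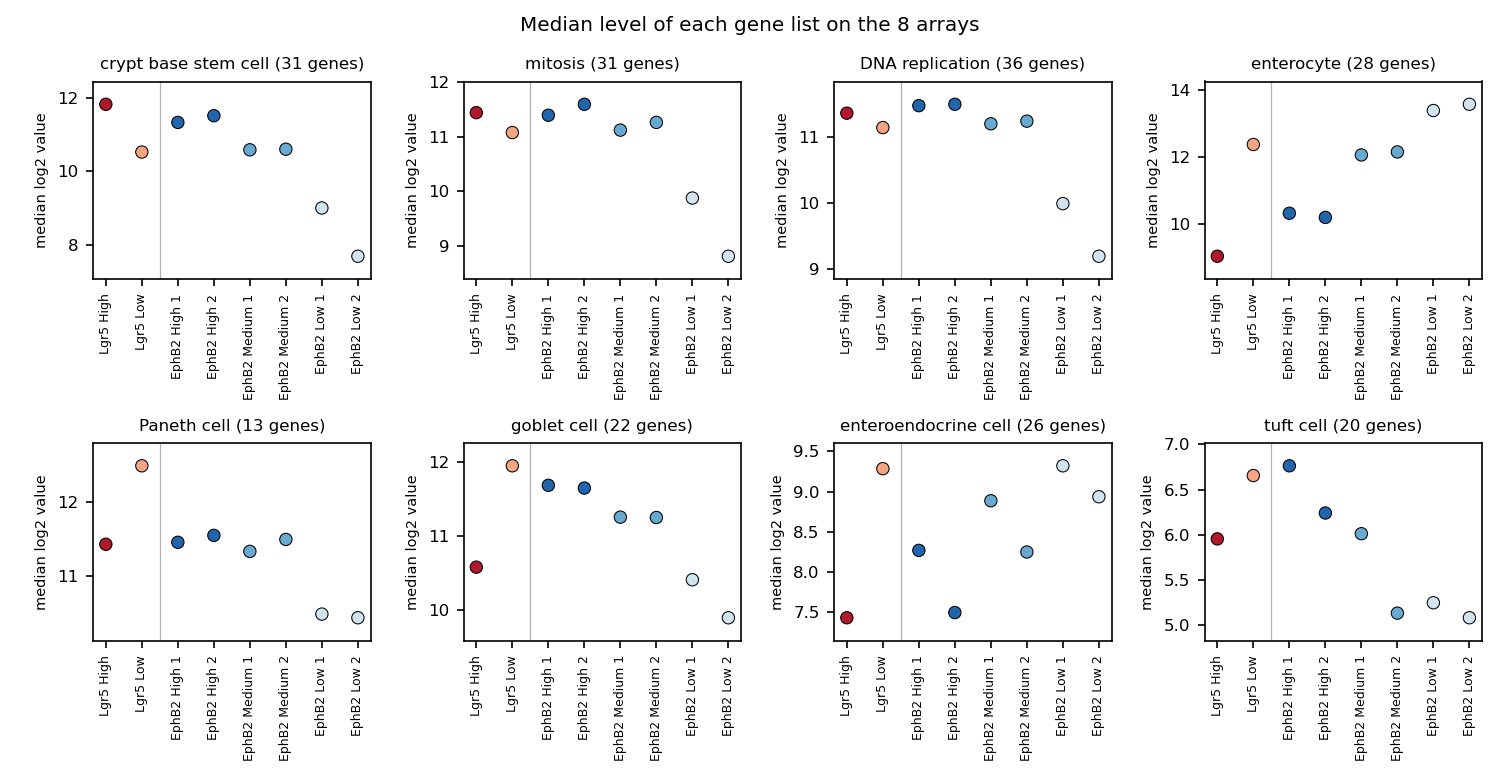
Median log2 value (y axis) of 8 gene lists on each of the 8 arrays (x axis), with the Lgr5 arrays left of the grey line and the duplicate EphB2 arrays right of it. Stem cell and enterocyte medians order both sorts alike, while the Paneth and goblet medians are highest on Lgr5 Low and the mitosis and replication medians are lowest on EphB2 Low.

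For signalling pathways, the share of passing genes past 2-fold is set beside 9.31% of all passing genes. Each list held few passing genes, and whether any share departed from 9.31% was not tested. Of 25 Notch pathway genes measured and 17 passing, 0 passed 2-fold in either direction. Hes1, a Notch target that holds back secretory fate, read 10.43 on Lgr5 High and 9.69 on Lgr5 Low, the receptor Notch1 11.61 on Lgr5 High and 10.88 on Lgr5 Low, and the modifying enzyme Lfng 9.49 on Lgr5 High and 8.85 on Lgr5 Low. The ligands Dll1 (-0.33) and Dll4 (-0.45) had values below 0. In the BMP pathway, Id4, a target gene, read 7.46 on Lgr5 High and 9.14 on Lgr5 Low and Smad6, a feedback inhibitor, 6.44 on Lgr5 High and 7.48 on Lgr5 Low, and both were at least 2-fold lower among 22 measured and 16 passing (12.5%). Bmp2 differed by -0.81 and Bmp7 by 0.78. Among Eph receptors and ephrins, 4 of 11 passing genes were past 2-fold (36.4%), equally many in each direction. Epha4 (1.50) and Efna4 (1.31) were higher and the ligand Efnb2 (-2.53) and Epha2 (-1.20) lower, and Ephb3 read 9.06 on Lgr5 High and 8.31 on Lgr5 Low. Efnb2, a ligand of EphB receptors, read 9.35 and 9.07 on EphB2 High, 10.91 and 11.03 on EphB2 Medium and 11.75 and 11.92 on EphB2 Low, so Lgr5 High lay below every other array. In the EGF receptor family, 2 of 11 passing genes were past 2-fold (18.2%). The ligand Ereg read 7.66 on Lgr5 High and 9.44 on Lgr5 Low and the ligand Nrg4 9.14 on Lgr5 High and 8.06 on Lgr5 Low, while the receptor Egfr (0.16) and its inhibitor Lrig1 (0.94) stayed under 2-fold. For Nrg4 the EphB2 difference was 0.27 ± 0.24 (limma adjusted p = 0.444), and its Lgr5 difference was 0.997, just under 2-fold, with cyclic loess normalization.

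Metabolic lists differed from each other. Beside their counts stand the shares of all passing genes, 9.31% past 2-fold either way and 6.31% at least 2-fold lower. Oxidative phosphorylation genes had 0 of 31 past 2-fold and a median of -0.14, with 28 below 0. Fatty acid oxidation genes had 0 of 19 past 2-fold and a median of -0.24, with 18 below 0. Of all 18193 measured genes, 10116 were below 0. Whether any list departed from these shares was not tested. Among 16 glycolysis genes, Pfkp (10.04 on Lgr5 High and 12.06 on Lgr5 Low) and Pfkfb3 (6.92 on Lgr5 High and 8.19 on Lgr5 Low), a pair of enzymes around the phosphofructokinase step, were at least 2-fold lower. Ldhb, a lactate dehydrogenase subunit, was higher (7.92 on Lgr5 High and 6.15 on Lgr5 Low), with further probe sets from 0.87 to 2.26. All 18 cholesterol synthesis genes had values below 0, with a median of -0.52, and Msmo1 (-1.50), Cyp51 (-1.30) and Sc5d (-1.12) were at least 2-fold lower. In xenobiotic metabolism 9 of 23 measured genes were at least 2-fold lower (39.1%, against 3.91% of all measured genes), led by Cyp2b10 (-5.03). Cyp2e1, a cytochrome P450 that oxidizes ethanol, went the other way with 11.38 on Lgr5 High and 9.21 on Lgr5 Low, and it read 9.44 and 10.31 on EphB2 High, 8.13 and 8.22 on EphB2 Medium and 5.28 and 5.02 on EphB2 Low.

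Defence genes were lower in part. Of 19 antimicrobial and inducible defence genes, 13 passed and 6 were at least 2-fold lower (31.6%, against 3.91% of all measured genes). Reg3a, a lectin against bacteria, differed by -4.82. Interferon response genes had 7 of 20 at least 2-fold lower and 1 higher. Ifit1, which binds foreign RNA, read 3.55 on Lgr5 High and 7.94 on Lgr5 Low, Mx1 4.17 on Lgr5 High and 6.96 on Lgr5 Low and Rsad2 6.22 on Lgr5 High and 7.99 on Lgr5 Low, while the GTPase gene Iigp1 was higher by 1.27. Iigp1 read 7.50 and 5.33 on EphB2 High, 6.38 and 4.13 on EphB2 Medium and 5.61 and 4.39 on EphB2 Low, where the duplicates of EphB2 High and of EphB2 Medium lay more than 2 log2 units apart, further than the Lgr5 fractions. MHC class II genes had 6 of 7 values above 0 and none past 2-fold, with a median of 0.37 and an EphB2 median of -0.50. Among them, H2-Eb1 read 12.16 on Lgr5 High and 11.32 on Lgr5 Low and Ciita, the activator of these genes, 7.39 on Lgr5 High and 6.54 on Lgr5 Low. Immediate early and heat shock genes, which respond to tissue dissociation, had 0 of 20 past 2-fold and a median of -0.18, with 18 below 0. Fos read 13.77 on Lgr5 High and 13.89 on Lgr5 Low. Of all passing genes 9.31% were past 2-fold, and whether the MHC class II or dissociation genes departed from that share was not tested.

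**Figure D4:**
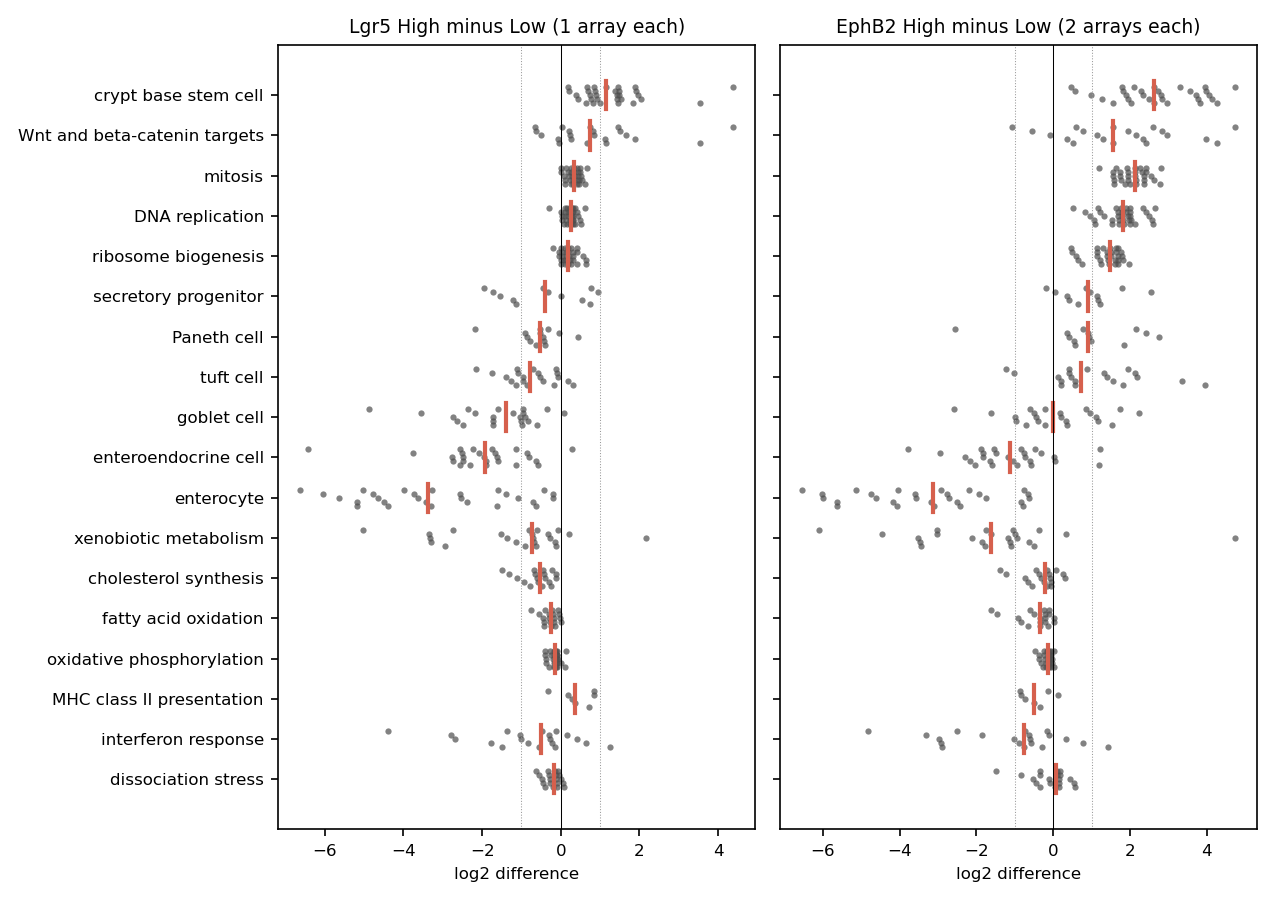
Log2 difference of each measured member of 18 gene lists (grey points, with the list median as a red bar) between Lgr5 High and Lgr5 Low (left, 1 array each) and between EphB2 High and EphB2 Low (right, 2 arrays each), with dotted lines at 2-fold. The mitosis, replication and ribosome medians are between 0.18 and 0.33 on the left and between 1.46 and 2.11 on the right, and the tuft and Paneth medians change sign between the panels.

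Markers of cells other than epithelium were mostly dim in both fractions. Of 22 measured lymphocyte genes, 4 passed the brightness rule, and Ptprc, the pan-leukocyte marker, read 3.84 on Lgr5 High and 4.03 on Lgr5 Low and Cd3e, of the T cell receptor complex, 4.93 on Lgr5 High and 5.33 on Lgr5 Low. The summed signal of the lymphocyte list on the linear scale was 1019 on Lgr5 High and 817 on Lgr5 Low, against 805 to 863 on EphB2 High and 780.4 to 884 on EphB2 Low. Gzma, a protease of cytotoxic lymphocytes, was the 1 member past 2-fold and is described with the EphB2 sort, and without it the lymphocyte sums were 887 on Lgr5 High and 801 on Lgr5 Low. Of 15 myeloid genes 4 passed, and Lyz2 (10.93 on Lgr5 High and 12.27 on Lgr5 Low) and C1qa (4.94 on Lgr5 High and 6.28 on Lgr5 Low) were lower in Lgr5 High. Lyz2 is nearly identical to Lyz1, so their signals may not be separate. The summed myeloid signal was 3521 on Lgr5 High and 6044 on Lgr5 Low, against 2521 to 2924 on EphB2 High and 1404 to 1420 on EphB2 Low. Lyz2 alone made up 1947 and 4954 of the Lgr5 sums, and without it the order turned, to 1574 on Lgr5 High and 1090 on Lgr5 Low. Of 20 stromal and endothelial genes 4 passed, and Vim, an intermediate filament protein of mesenchymal and some other cells, read 7.59 on Lgr5 High and 11.05 on Lgr5 Low, with 2 further probe sets at -3.51 and -3.39. Col1a1 (4.53 on Lgr5 High and 4.75 on Lgr5 Low) and Pecam1 (4.57 on Lgr5 High and 4.61 on Lgr5 Low) were dim on both. The summed stromal signal was 915 on Lgr5 High and 2925 on Lgr5 Low, against 1104 to 1560 on EphB2 High and 1856 to 2644 on EphB2 Low. Without Vim, which carried most of the difference, the stromal sums were 722 on Lgr5 High and 804 on Lgr5 Low. Of 4 red blood cell genes 0 passed, with Hba-a1 at 4.03 on Lgr5 High and 4.36 on Lgr5 Low. With all members, the myeloid and stromal sums were highest of the 8 arrays on Lgr5 Low and the lymphocyte sum on Lgr5 High. Leaving out Lyz2, Vim and Gzma, an alternative chosen after seeing the data, put the highest myeloid sum on an EphB2 High array and the highest stromal sum on an EphB2 Low array, while the lymphocyte sum stayed highest on Lgr5 High. The part of such cells in the other differences was not tested.

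The EphB2 sort used other arrays and another marker, so its comparison of EphB2 High with EphB2 Low can be set beside the Lgr5 values. No label says that duplicates came from separate animals, so the p-values rest on a spread between arrays that may be technical only. With limma, 4010 of 18193 genes (22.0%) were called higher in EphB2 High and 2782 (15.3%) lower, 37.3% in all. Of the 339 genes at least 2-fold higher in Lgr5 High, 298 (87.9%) were called higher, 5 lower and 36 not called, where 33.2% of all passing genes were called higher. Of the 712 lower genes, 539 (75.7%) were called lower, 43 higher and 130 not called, where 20.6% of passing genes were called lower. As shares of the EphB2 calls among passing genes, the 298 were 7.96% of 3746 and the 539 were 23.1% of 2330. Across the 11288 genes the differences correlated at r = 0.749, with genes not independent of each other.

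The overlap was uneven at the upper end. Of 1925 passing genes called at least 2-fold higher in EphB2 High, 279 (14.5%) were at least 2-fold higher in Lgr5 High, and 1614 were under 2-fold. Their median difference was 1.55 in the EphB2 sort and 0.43 in the Lgr5 sort. Of 1131 called at least 2-fold lower, 510 (45.1%) were at least 2-fold lower in Lgr5 High, with medians of -1.68 and -0.87. The difference between the sorts was not tested.

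**Figure D5:**
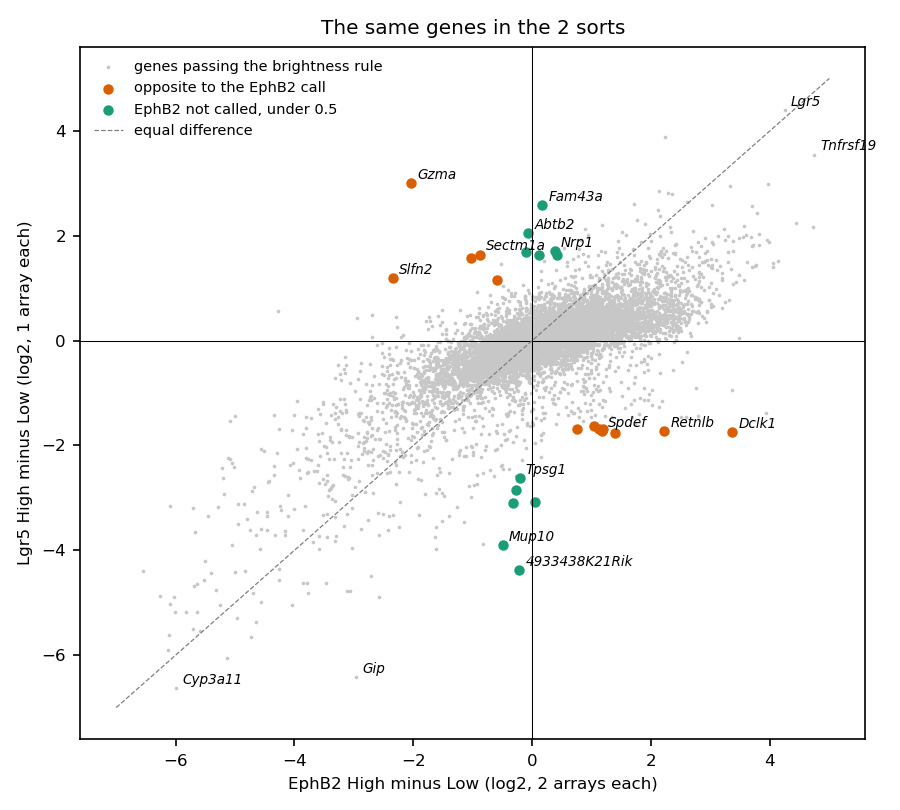
Log2 difference between Lgr5 High and Lgr5 Low (y axis, 1 array each) against that between EphB2 High and EphB2 Low (x axis, 2 arrays each) for 11288 genes, with a dashed line of equal difference. Named genes with a call of the opposite sign in the EphB2 sort (orange) include Gzma at 3.005 and Dclk1 at -1.74, and those with no EphB2 call and a difference under 0.5 (green) include Fam43a at 2.58 and Mup10 at -3.90.

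A small set of genes went opposite ways in both sorts. Higher in Lgr5 High but called lower in EphB2 High were 5 genes. Gzma read 7.05 on Lgr5 High and 4.04 on Lgr5 Low, with 3.35 and 3.14 on EphB2 High, 4.03 and 3.28 on EphB2 Medium and 6.03 and 4.55 on EphB2 Low, and its EphB2 difference was -2.04 ± 0.50 (limma adjusted p = 0.0233), a call that leaving out 1 array could end (highest adjusted p 0.106). Slfn2, of the Schlafen family, read 8.19 on Lgr5 High and 6.99 on Lgr5 Low, with 7.68 and 6.96 on EphB2 High, 7.87 and 7.46 on EphB2 Medium and 9.75 and 9.58 on EphB2 Low (-2.35 ± 0.27 (limma adjusted p = 0.00188)). Sectm1a read 7.14 on Lgr5 High and 5.50 on Lgr5 Low, Crim1 8.02 on Lgr5 High and 6.44 on Lgr5 Low and D430042O09Rik 9.20 on Lgr5 High and 8.04 on Lgr5 Low, and leaving out 1 array could end the EphB2 call of each, with a highest adjusted p of 0.087, 0.142 and 0.124. Crim1 also lost its call with the hybridization block (adjusted p = 0.0509), and its second probe set differed by 0.21 in the Lgr5 sort.

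The 43 genes lower in Lgr5 High and called higher in EphB2 High included 11 of the secretory lists (25.6%). The same lists held 43 of the 712 lower genes (6.04%) and 78 of the 11288 passing genes (0.691%). Since the lists were chosen with earlier results of these data known, these shares are no independent evidence. Dclk1 was higher in EphB2 High by 3.36 ± 0.53 (limma adjusted p = 0.00475), and its 3 further probe sets in the Lgr5 sort ranged from -1.34 to -1.05. Retnlb, a goblet cell protein against bacteria and worms, read 6.05 on Lgr5 High and 7.77 on Lgr5 Low, with 8.04 and 7.77 on EphB2 High, 7.16 and 7.34 on EphB2 Medium and 6.06 and 5.31 on EphB2 Low (2.23 ± 0.26 (limma adjusted p = 0.00194)). Spdef, described above, read 10.08 and 10.02 on EphB2 High, 9.81 and 9.65 on EphB2 Medium and 9.18 and 8.58 on EphB2 Low (1.17 ± 0.21 (limma adjusted p = 0.00766)). For Retnlb and Spdef, Lgr5 High lay near the higher EphB2 Low array. For Dclk1, Lgr5 High (6.36) lay beside the lower EphB2 Medium array (6.35) and above both EphB2 Low arrays. Lgr5 Low lay above both EphB2 High arrays for Spdef, beside the lower of them for Retnlb and below both for Dclk1. Hpd, an enzyme of tyrosine breakdown, read 9.29 on Lgr5 High and 11.06 on Lgr5 Low, with 9.95 and 9.89 on EphB2 High, 9.61 and 9.39 on EphB2 Medium and 8.74 and 8.30 on EphB2 Low, so Lgr5 Low was the highest array. Cbfa2t3, a transcriptional co-repressor, read 8.51 on Lgr5 High and 10.20 on Lgr5 Low, and Ern2, a stress sensor of the endoplasmic reticulum in mucous cells, 8.12 on Lgr5 High and 9.81 on Lgr5 Low. Id4 differed by -1.69 and 1.13 ± 0.13 (limma adjusted p = 0.00205) in the Lgr5 and EphB2 sorts, and Ifnz by -1.63 and 1.04 ± 0.28 (limma adjusted p = 0.0313). Leaving out 1 array could end the EphB2 calls of Ern2 and Ifnz (highest adjusted p 0.0792 and 0.13).

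Other genes separated the Lgr5 fractions while the EphB2 difference was small and not called. Fam43a read 7.12 on Lgr5 High and 4.53 on Lgr5 Low, with 6.57 and 6.24 on EphB2 High, 6.08 and 5.93 on EphB2 Medium and 6.33 and 6.14 on EphB2 Low, so Lgr5 Low alone lay below the other 7 arrays. Nrp1, a co-receptor of semaphorins and vascular growth factors, read 8.47 on Lgr5 High and 6.76 on Lgr5 Low, and 2 further probe sets gave 0.92 and 1.31. Tenm4, a teneurin of cell adhesion, read 7.83 on Lgr5 High and 6.19 on Lgr5 Low, and Abtb2 7.39 on Lgr5 High and 5.34 on Lgr5 Low. Asgr2 read 6.65 on Lgr5 High and 4.96 on Lgr5 Low and Catsperd 6.65 on Lgr5 High and 5.01 on Lgr5 Low. For Asgr2 (4.57 to 5.19) and Catsperd (4.95 to 5.53) all EphB2 arrays were under the brightness threshold. For Tenm4 only the second EphB2 High array (6.23) was above it. The small EphB2 differences of these 3 genes may therefore lie near background. On the lower side, Kcnk6, a potassium channel, read 6.44 on Lgr5 High and 9.30 on Lgr5 Low with 8.25 and 7.90 on EphB2 High, 8.72 and 8.97 on EphB2 Medium and 8.35 and 8.34 on EphB2 Low, and Tpsg1, a protease on the goblet cell list, 6.81 on Lgr5 High and 9.44 on Lgr5 Low. In Kcnk6 it was Lgr5 High that lay below the other arrays. Mup10 read 3.67 on Lgr5 High and 7.57 on Lgr5 Low and 4933438K21Rik 3.85 on Lgr5 High and 8.23 on Lgr5 Low, and for both all EphB2 arrays were under the brightness threshold. The same held for 1700040G22Rik (3.58 on Lgr5 High and 6.67 on Lgr5 Low) and Vmn2r84, of the vomeronasal receptor family (3.18 on Lgr5 High and 6.27 on Lgr5 Low).

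Such single-array values were counted over all passing genes. Lgr5 Low alone lay 1 log2 unit or more above the other 7 arrays for 30 genes, 20 of which were under the threshold on all of those 7, and below them for 1 gene, Fam43a. Lgr5 High lay 1 unit or more below every other array for 117 genes and above for 28. In the former were Lct, Apoa1, Reg3a, Fer1l6 and Gip, the cell cycle inhibitor Cdkn2b, which read 6.84 on Lgr5 High and 11.61 on Lgr5 Low, and 8 genes of the secretory lists. In the latter, besides A930009A15Rik, Clu and Tenm4, were Pgc, the aspartic protease progastricsin, with 8.90 and 6.59, and Casp12 with 8.48 and 6.78. These genes were 176 in all, and without them 310 genes were at least 2-fold higher and 565 at least 2-fold lower.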

How the data were processed

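Expression was measured on 8 Affymetrix arrays of sorted mouse crypt cells. The deposited log2 values of 45101 probe sets were made with RMA, which subtracts background, equalizes the arrays by quantiles and summarizes each probe set, per the submitters' processing notes. The sources used here give neither its version nor whether the 8 arrays were normalized together. Because the distributions are made nearly equal, total RNA per cell is not measured, and the number of arrays limits the precision.

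GEO's platform annotation, which can be old, supplied gene names: 34945 probe sets named 1 gene, 932 several and 9160 none in the table used, and 64 controls were left out. For 34741 of the single-gene probe sets the RefSeq table held the gene ID. For each of 18193 genes, the single-gene probe set with the highest mean on the 6 EphB2 arrays stood for the gene. A gene passed the brightness rule if its higher Lgr5 array was above 6.17, the median of all values of both Lgr5 arrays. Of 295 genes past 2-fold with further bright probe sets, 10 had one of opposite sign.

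Lgr5 High and Lgr5 Low had 1 array each, so differences are given without a test. EphB2 High and EphB2 Low were compared with limma (version 3.58.1, R 4.3.3; lmFit and eBayes, 2-sided) over the 6 EphB2 arrays, with no term but the group, 3 residual degrees of freedom and Benjamini-Hochberg adjustment over 18193 genes. Errors are limma's standard errors. The fits were tested on simulated data. Among the EphB2 arrays, replicate numbers mark a shared hybridization in the labels. Deviations of arrays of 1 number from their group means correlated at 0.45 (High and Medium), 0.13 (High and Low) and 0.21 (Medium and Low). All were positive, so arrays of 1 hybridization shared part of their deviations, most for High and Medium. The main fit leaves this pairing out, and its adjusted p-values take no account of it. More genes were called with the block (4325 higher and 3138 lower) than without it (4010 and 2782). The number entered as a block in an alternative fit.

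Named genes were Lgr5, the 15 of largest difference in each direction, up to 5 per list with the largest difference and defining markers of other cells, up to 8 in each direction with an opposite EphB2 call, up to 6 with no EphB2 call and a difference below 0.5, and 2 on each side of the brightness threshold. Other genes are named as members of the lists or, in the paragraph on single-array values, after their values were seen. The members, the 29 gene lists and the rules were chosen with earlier results of these data known. Promoters (250 bases before a gene's start, RefSeq GRCm38.p6) were matched by symbol, and motif spellings were chosen after values were seen. Alternatives were the representative probe set, the brightness rule, quantile or cyclic loess normalization, the block and leaving out each EphB2 array.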

Additional observations from a re-analysis of the deposited data

Results flagged for a closer look

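Of 48 genes past 2-fold between Lgr5 High and Lgr5 Low with an EphB2 call of the opposite sign, at most 8 in each direction were named, by size of the Lgr5 difference, which gave 13 genes. In each of these 13 both EphB2 High arrays lay on the other side of both EphB2 Low arrays from the Lgr5 difference. The genes were picked by their calls on these same EphB2 arrays, so this separation is no further support. With 1 array in each Lgr5 fraction, the difference between the sorts was not tested. Higher in Lgr5 High and lower in both EphB2 High than in both EphB2 Low arrays were Gzma (3.005), Sectm1a (1.64), Crim1 (1.58), Slfn2 (1.19) and D430042O09Rik (1.16, log2). Lower in Lgr5 High and higher in both EphB2 High arrays were Hpd (-1.77), Dclk1 (-1.74), Retnlb (-1.72), Spdef (-1.72), Cbfa2t3 (-1.69), Ern2 (-1.69), Id4 (-1.69) and Ifnz (-1.63). No group held enough arrays to look for a single array far from the rest of its group.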

How the results depend on the processing

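Of 174 named genes, the sign of 1, Lyve1 (0.07), turned, to -0.01 with cyclic loess, and none of those past 2-fold turned. Nrg4 fell under 2-fold with cyclic loess, from 1.08 to 0.997. Crim1 fell from 1.58 to 0.21 with the probe set brightest on the Lgr5 arrays. List medians near 0 (BMP, Eph, EGF, lymphocyte and myeloid) turned under a normalization or with other probe sets. Counted over probe sets, 625 were at least 2-fold higher. With the higher array above the 75th percentile, 98 genes were higher and 358 lower, which moved the share of higher genes from 32.3% to 21.5%. It was between 28.7% and 38.0% under the other settings. Without genes where 1 Lgr5 array stood alone, an alternative chosen after seeing the data, 310 were higher and 565 lower. For the EphB2 sort, leaving out 1 array gave 2476 to 3639 genes called higher and 1769 to 2539 called lower, lowest without the second EphB2 High array, and the genes shared with Lgr5 High ranged from 247 to 297 higher and from 499 to 541 lower. A lone array was then assumed to vary like the other groups. The causes were not tested. With the replicate block, which pairs arrays by hybridization, 4325 were called higher and 3138 lower, with 309 and 566 shared. Of 130 named genes called in the EphB2 sort, the block ended 1 call (Crim1) and gave 6 others (Duoxa1, Tac1, Sh2d6, Hbegf, Vim and Hspa1a), and leaving out some array ended 28. With 1 array per fraction, no Lgr5 difference has an error of its own, and a value under 6.17 may lie near background, so folds against it are uncertain.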
